A study of Mus musculus with 23 samples.

Results

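The 8 genes described here encode the secretory proteases, receptors and histamine-forming enzyme by which connective tissue mast cells are recognised in the mouse. They are Cma1, Mcpt4, Tpsb2, Tpsab1, Cpa3, Kit, Ms4a2 and Hdc. They were picked by symbol from 39179 gene identifiers in a table of total RNA sequencing of mesenteric arteries, and each symbol matched 1 row. The 4 groups were wild-type male C57BL/6J mice aged 10 to 12 weeks. They received angiotensin II (Ang II), a peptide hormone that constricts arteries, at 1000 ng/kg/min from a subcutaneous osmotic pump for 7 days (6 libraries), sham surgery for 7 days (6 libraries), Ang II for 14 days (5 libraries) or sham surgery for 14 days (6 libraries). No group carried a transgene or other engineered allele, per the labels, and all arteries were cleaned of perivascular fat and veins before RNA extraction. Each library bears its own animal number.

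Mast cells are long-lived granulated cells that settle along blood vessels, in fat and in serosal membranes. They grow under stem cell factor acting on Kit and are triggered through the IgE receptor, whose beta chain is Ms4a2, or through other receptors. Granules of the connective tissue type hold chymases, tryptases and carboxypeptidase A3 bound to heparin, together with histamine made by Hdc. Human chymase converts angiotensin I into Ang II, and the mouse protease with a similar cleavage preference is encoded by Mcpt4. In the artery wall these genes are used as a sign of mast cells, although Kit and Hdc are used by other cells as well.

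The libraries held 4471038 to 21509283 reads. Depth was 13848268 ± 4742944 reads in Ang II and 8898834 ± 4893066 in sham libraries of day 7 (SD, n = 6 each), and 18587447 ± 2498606 in Ang II (n = 5) and 14214829 ± 3713039 in sham (n = 6) at 14 days. The transcript listed as AY036118 took 0.0431% to 36.2% of the reads of a library. All values below are the authors' normalised read counts, in which 1 read is worth between 0.0375 and 0.326 depending on the library. The 8 genes together had only 61 to 614 reads in a library, and the median counting error of the 6 genes tested below was 10% (Kit) to 21.8% (Hdc) of a library's value. In whole arteries, fewer mast cells and less RNA in each mast cell cannot be told apart. Transcripts of other tissue were present despite the cleaning. The values of a library added up to between 778501 and 1456495. Of these, 12 pancreatic acinar markers together averaged 113889 and 8 adipocyte markers 1231 over the 23 libraries. Their part in the values of the members was not tested.

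Several of the 8 genes have close relatives, so their sequences bear on what the counts can tell. In GRCm38, Cma1 lies on the minus strand of chromosome 14 at 55941451 to 55944675 and Mcpt4 on the same strand at 56059629 to 56062313. Tpsb2 lies on the plus strand of chromosome 17 at 25366305 to 25369098 and Tpsab1 on the minus strand at 25343245 to 25345562. These spans run over exons and introns of the annotated genes. Over the aligned coding bases of their transcripts in GENCODE release M21, Tpsb2 and Tpsab1 were 75.4% identical and Cma1 and Mcpt4 67.4% identical, with longest shared runs of 39 and 27 bases. Mcpt4 was closer to the other mast cell protease genes Mcpt1 (86.4%), Mcpt9 (84.0%) and Mcpt2 (79.4%), with shared runs of up to 56 bases. The 60-base stretches with the fewest differences within each pair are shown as an example of how alike the genes can be, with differing bases in capitals.
Tpsb2 coding bases 706 to 765: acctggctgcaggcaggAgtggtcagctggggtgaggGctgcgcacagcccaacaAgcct
Tpsab1 coding bases 808 to 867: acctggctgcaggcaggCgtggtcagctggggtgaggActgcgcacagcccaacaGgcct
Cma1 coding bases 633 to 692: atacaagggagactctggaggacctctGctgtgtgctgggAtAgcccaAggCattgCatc
Mcpt4 coding bases 591 to 650: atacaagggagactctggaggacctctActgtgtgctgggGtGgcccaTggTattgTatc
The tryptase stretches differ at 3 bases and the chymase stretches at 6. How reads that match more than 1 gene were counted is not given in the sources used here. The split between Tpsb2 and Tpsab1, and between Mcpt4 and its Mcpt relatives, is therefore uncertain. Those Mcpt relatives had few reads, with 49 for Mcpt2, 20 for Mcpt1 and 0 for Mcpt9 over all 23 libraries, against 939 for Mcpt4.

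The coding sequences of the remaining genes were not compared with those of relatives. In GRCm38, Cpa3 lies on chromosome 3 at 20215620 to 20242181 (minus strand) and overlaps the microRNA gene Mir7007 on the same strand. Kit lies on chromosome 5 at 75574916 to 75656722 (plus strand), Ms4a2 on chromosome 19 at 11615523 to 11623719 (minus strand) and Hdc on chromosome 2 at 126593667 to 126619299 (minus strand). None of the other 7 genes overlapped an annotated gene on either strand.

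Among these genes the chymases and the carboxypeptidase were the most abundant per length of exon, and the IgE receptor beta chain was nearly absent. Over all 23 libraries, the level per kilobase of exon was 2.47 ± 1.11 for Cma1, 2.47 ± 1.13 for Mcpt4 and 2.15 ± 0.923 for Cpa3 (SD, n = 23). Next came Tpsb2 at 1.18 ± 0.524, Kit at 0.845 ± 0.179, Hdc at 0.304 ± 0.153, Tpsab1 at 0.0859 ± 0.0765 and Ms4a2 at 0.0179 ± 0.0225 per kilobase. The first 3 were not separated by their spread, since Cma1 exceeded Mcpt4 in 11 of the 23 libraries and Mcpt4 exceeded Cpa3 in 17. The step from Cpa3 to Tpsb2 was seen in 22 of 23 libraries, that from Tpsb2 to Kit in 18, and that from Kit to Hdc in all 23. Ms4a2 had 16 reads in total, spread over 12 libraries, and Tpsab1 had 55 reads in 18 libraries. Tpsab1 encodes a second tryptase whose protein C57BL/6 mice are known to lack, and RefSeq classes the gene as a transcribed pseudogene, whereas GENCODE classes it as protein coding.

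**Figure D1:**
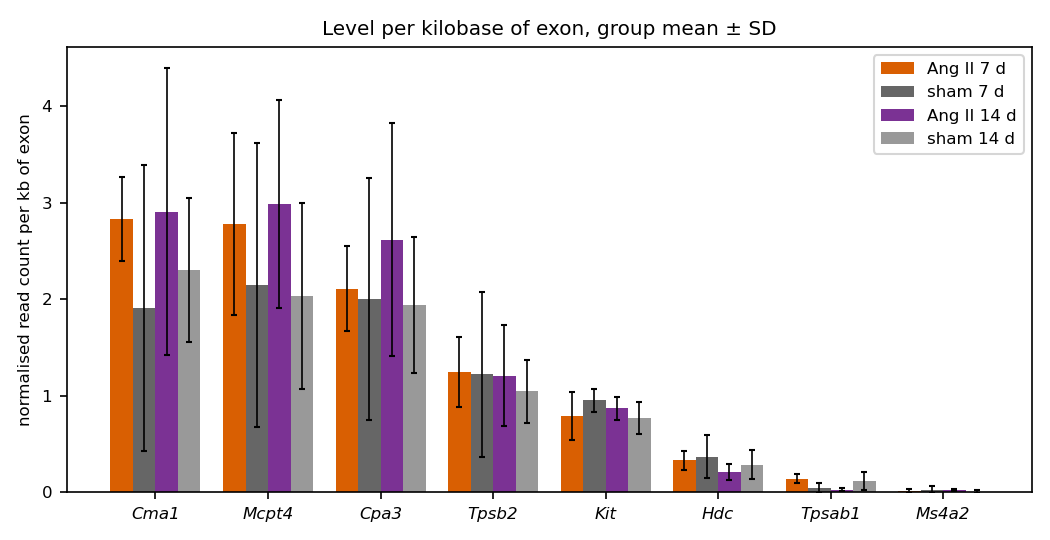
Normalised read count per kilobase of exon for the 8 genes, as group means (bars) with SD (lines), in Ang II and sham arteries at 7 and 14 days (n = 6, 6, 5 and 6 libraries). Cma1, Mcpt4 and Cpa3 stand highest, between 1.91 and 2.99 in every group, and Tpsab1 and Ms4a2 lie near 0.

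The mix of proteases was led by the chymases and Cpa3 in every group. Of the summed level per kilobase of the 5 proteases, Mcpt4 made up 29.7 ± 8.80%, Cma1 28.9 ± 7.08%, Cpa3 25.7 ± 3.33%, Tpsb2 14.4 ± 4.17% and Tpsab1 1.15 ± 1.07% (SD, n = 23 libraries). The mean share of Cma1 lay between 24.6% (sham, 7 days) and 31.2% (Ang II, 7 days), and that of Mcpt4 between 26.4% (sham, 14 days) and 31.7% (Ang II, 14 days). Mcpt4 and Cma1 shares varied most among 7-day sham animals, with SDs of 15.1 and 12.9 percentage points, which is also the group with the fewest reads. The sum itself was 9.12 ± 1.51 in Ang II and 7.32 ± 4.24 in sham arteries of day 7 (n = 6 each), and 9.76 ± 4.27 in Ang II (n = 5) and 7.44 ± 2.62 in sham (n = 6) at 14 days. Single libraries ran from 2.73 to 14.3, so animals of 1 group differed more than the group means did.

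The first comparison set arteries after 7 days of Ang II infusion against those of sham mice. The chymase genes had the highest fold changes and Kit the lowest, and no member passed the test. Of the 8 genes 6 had values high enough to be tested, and limma called 0 of these 6 at a Benjamini-Hochberg adjusted p under 0.05. Of all 14896 tested genes it called 0.819%, made up of 0.752% higher and 0.0671% lower. At an unadjusted p under 0.05 limma had 1 of the 6, Cma1, against 9.28% of all genes. On recovered reads edgeR and DESeq2 had 0 of the 6 at an unadjusted p under 0.05 and called 0. The median log2 fold change of the 6 was 0.20, against 0.00 over all genes.

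Cma1, the mouse mast cell chymase also known as mMCP-5, had the largest difference at 7 days. Its values ran from 2.55 over a median of 2.99 to 3.87 in Ang II arteries, and from 0.326 over a median of 1.89 to 4.43 in sham arteries. All 6 Ang II values lay above the sham median, but the highest and lowest values of the comparison were both sham, so the groups overlapped. The log2 fold change was 0.75 ± 0.36 (SE; 95% interval 0.01 to 1.48; limma adjusted p = 0.52). The mean was 3.09 ± 0.472 in Ang II and 2.08 ± 1.61 in sham (SD, n = 6 each). The 7-day sham libraries held 1 to 38 Cma1 reads, against 24 to 65 in the Ang II libraries, so the wider sham spread goes with lower counts, and their part in it was not tested.

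Mcpt4, the chymotrypsin-like protease mMCP-4, ran from 1.38 over a median of 3.03 to 4.62 in Ang II arteries and from 0.846 over a median of 2.13 to 5.18 in sham arteries at 7 days. Of the 6 Ang II values, 5 lay above the sham median, and the single highest value was a sham animal. The log2 fold change was 0.44 ± 0.33 (SE; interval -0.24 to 1.12; limma adjusted p = 0.78).

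Tpsb2, the tryptase mMCP-6, and Cpa3, which trims peptides from their carboxyl end, showed smaller differences at 7 days. Tpsb2 ran from 1.12 over 2.0 to 2.74 in Ang II arteries and from 0.652 over 1.67 to 3.90 in sham arteries (lowest, median, highest). Cpa3 ran from 2.26 over 3.34 to 3.97 in Ang II arteries and from 1.06 over 2.74 to 6.16 in sham arteries. For both genes the Ang II values fell inside the sham range. The log2 fold changes were 0.18 ± 0.30 for Tpsb2 (interval -0.43 to 0.80) and 0.22 ± 0.30 for Cpa3 (-0.40 to 0.85), with limma adjusted p of 0.93 and 0.91.

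Kit, the stem cell factor receptor, was the member with a negative difference of some size at 7 days. Its values ran from 4.85 over a median of 6.59 to 10.3 in Ang II arteries and from 6.47 over a median of 8.92 to 9.37 in sham arteries. The 3 lowest values were Ang II animals below every sham animal, while 1 Ang II animal lay above them all. The log2 fold change was -0.30 ± 0.17 (SE; interval -0.64 to 0.05; limma adjusted p = 0.64). Hdc, which makes histamine from histidine, ran from 1.15 over 2.13 to 2.96 in Ang II arteries and from 1.01 over 1.8 to 4.89 in sham arteries, with a log2 fold change of -0.03 ± 0.29 (limma adjusted p = 0.99).

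**Figure D2:**
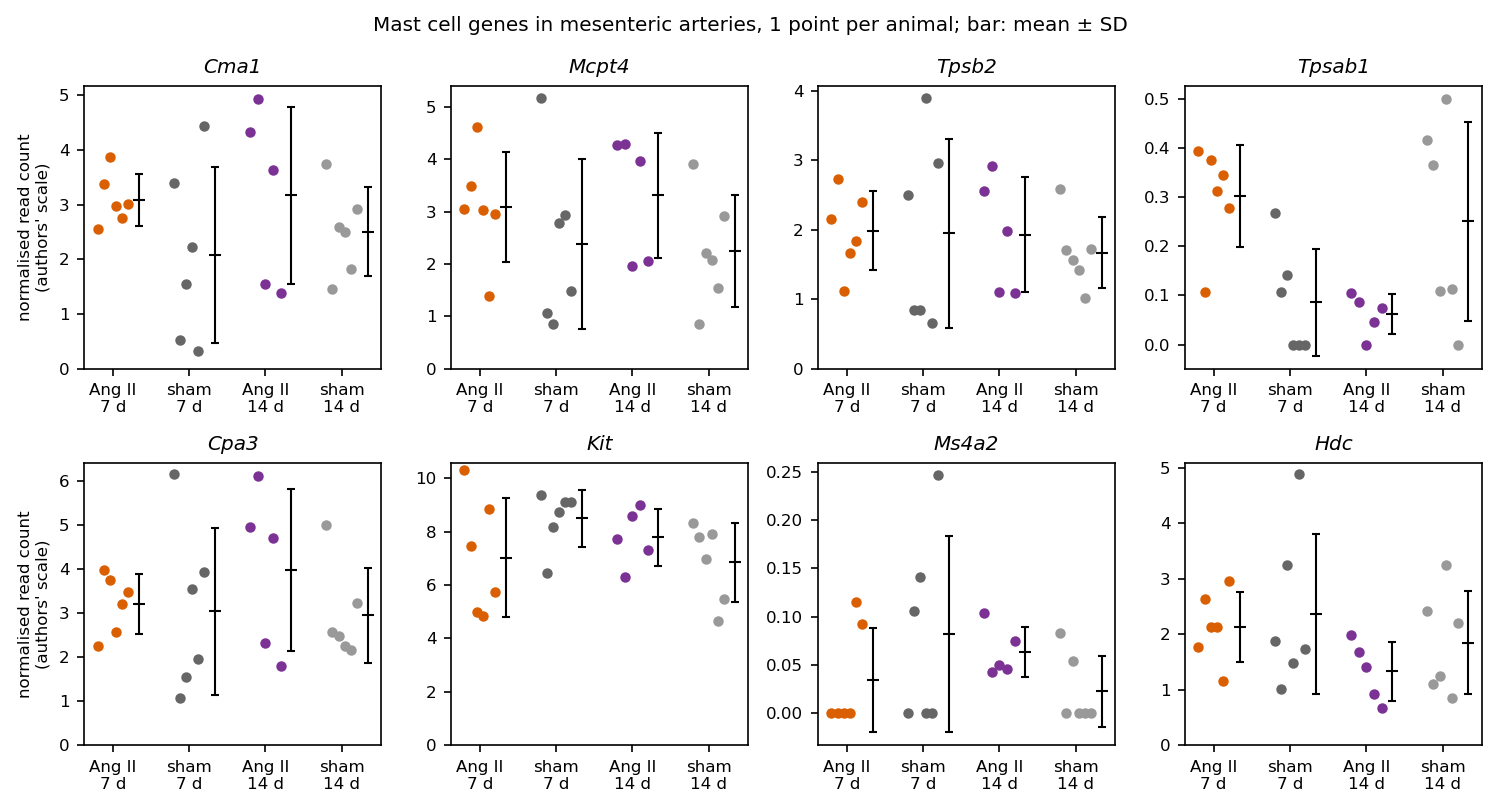
Normalised read count of each of the 8 genes, 1 point per animal, in Ang II and sham arteries at 7 days (6 and 6) and 14 days (5 and 6), with the group mean and SD beside the points. The groups overlap in every panel, and the 7-day sham values of Cma1 spread from 0.326 to 4.43, against 2.55 to 3.87 in Ang II.

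The second comparison asked the same after 14 days. All 4 measured proteases had positive fold changes and Hdc a negative one, and again none passed the test. By limma 0 of the 6 tested members were called, where 6.06% of all tested genes were. That share is 902 genes, and it ran from 399 to 2193 genes with 1 library left out. At an unadjusted p under 0.05 there were also 0 of the 6, against 24.6% of all genes. Both edgeR and DESeq2 called 0 of them as well. The median log2 fold change of the 6 was 0.19, against 0.03 over all genes.

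The proteases ranked the 14-day Ang II animals in nearly the same way. Cpa3 values were 1.8, 2.31, 4.70, 4.95 and 6.10 in Ang II arteries, and ran from 2.16 over a median of 2.52 to 5.0 in sham arteries. Mcpt4 values were 1.96, 2.06, 3.97, 4.27 and 4.30 in Ang II arteries, and ran from 0.853 over a median of 2.15 to 3.92 in sham arteries. Cma1 values were 1.39, 1.56, 3.64, 4.32 and 4.94 in Ang II arteries, and ran from 1.46 over a median of 2.55 to 3.75 in sham arteries. For each of these genes the same 2 Ang II animals, replicates 3 and 5, were low, below or within the sham range, while the other 3 were high. Tpsb2 followed the same order, with 1.09, 1.10, 1.98, 2.55 and 2.92 in Ang II arteries against 1.02 to 2.58 in sham arteries (median 1.64). For Mcpt4 the 3 high Ang II animals lay above every sham animal.

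The fold changes at 14 days had wide intervals. Mcpt4 had a log2 fold change of 0.50 ± 0.34 (SE; interval -0.21 to 1.21; limma adjusted p = 0.38), and Cpa3 had 0.31 ± 0.32 (-0.34 to 0.97; adjusted p = 0.57). Cma1 had 0.20 ± 0.37 (-0.57 to 0.97; adjusted p = 0.77) and Tpsb2 0.12 ± 0.31 (-0.53 to 0.77; adjusted p = 0.83). All 4 intervals include 0, and all 4 also include a change of 0.75, the estimate of Cma1 at 7 days.

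Kit at 14 days had values of 6.32, 7.32, 7.71, 8.58 and 8.99 in Ang II arteries, and ran from 4.66 over a median of 7.38 to 8.33 in sham arteries. The groups overlapped, with 2 Ang II animals above every sham animal, and the log2 fold change was 0.19 ± 0.18 (SE; interval -0.17 to 0.55; limma adjusted p = 0.53). Hdc had 0.676, 0.922, 1.41, 1.68 and 1.98 in Ang II arteries, and ran from 0.852 over 1.72 to 3.25 in sham arteries. Of the 5 Ang II animals 1 lay above the sham median of Hdc, and the log2 fold change was -0.31 ± 0.31 (interval -0.94 to 0.32; limma adjusted p = 0.55).

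**Figure D3:**
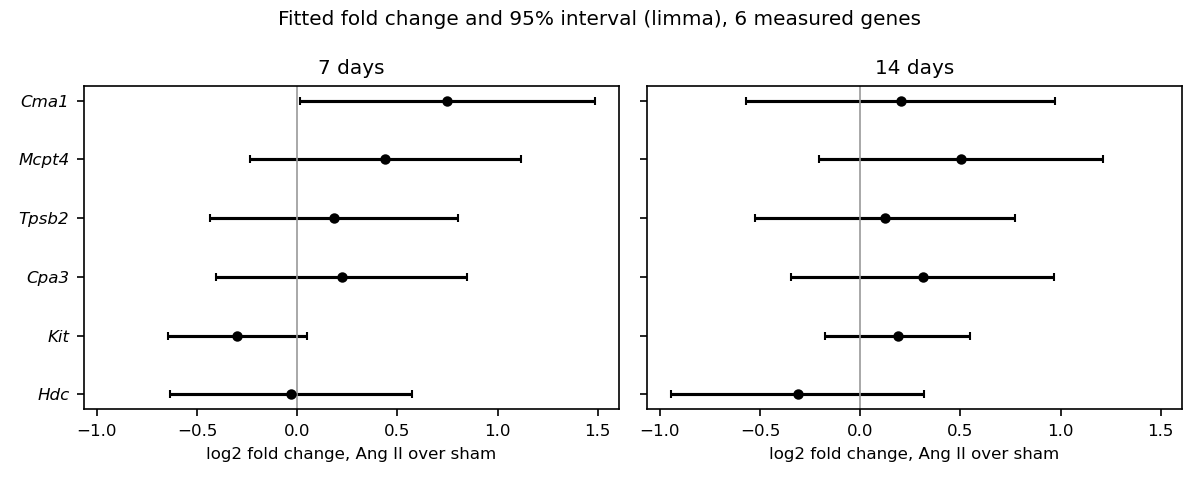
Log2 fold change, Ang II over sham, of the 6 tested genes at 7 days (left) and 14 days (right), as the limma estimate (point) with its 95% interval (line). Cma1 at 7 days, at 0.75 with an interval of 0.01 to 1.48, is the only interval that does not cross 0, and it is not adjusted for the genes tested.

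Setting both times together narrowed the intervals without bringing a call. For the mean of the 7- and 14-day differences, limma called 0 of the 6 tested members, against 7.5% of all genes (5.43% higher, 2.07% lower), and 0 of the 6 had an unadjusted p under 0.05. Both edgeR and DESeq2 called 0 here too. Cma1 had a log2 fold change of 0.47 ± 0.26 (SE; interval -0.06 to 1.01; adjusted p = 0.28) and Mcpt4 0.47 ± 0.24 (-0.02 to 0.96; adjusted p = 0.24). Cpa3 had 0.27 (-0.19 to 0.72), Tpsb2 0.15 (-0.29 to 0.60), Kit -0.06 (-0.31 to 0.19) and Hdc -0.17 (-0.61 to 0.26). The interval of Kit was the narrowest of the 6. This mean uses the same libraries as the comparisons at each time.

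The responses at 14 and 7 days were compared directly in the same fit. For their difference limma called 0 of the 6 members and 0% of all genes, and edgeR and DESeq2 called 0 of the 6. Among all genes 1396 had an unadjusted p under 0.05, edgeR called 0 and DESeq2 called 7 (3 with a larger and 4 with a smaller response at 14 days). No member had an unadjusted p under 0.05. The nearest was Kit, with a difference of 0.49 ± 0.24 on the log2 scale (interval -0.01 to 0.99; limma adjusted p = 0.54). Kit averaged 7.03 ± 2.23 in Ang II and 8.50 ± 1.08 in sham arteries of day 7 (SD, n = 6 each), and 7.78 ± 1.06 in Ang II (n = 5) and 6.86 ± 1.48 in sham (n = 6) at 14 days. The difference for Cma1 was -0.55 ± 0.52 (interval -1.61 to 0.52; adjusted p = 0.71).

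Time itself was compared within each treatment. Between 14-day and 7-day Ang II arteries limma called 0 of the 6 members, against 2.28% of all genes, and the largest difference was that of Hdc at -0.53 ± 0.31 (log2, SE; adjusted p = 0.37). Hdc averaged 1.33 ± 0.534 after 14 days (n = 5) and 2.13 ± 0.638 after 7 days (n = 6) of Ang II. Between 14-day and 7-day sham arteries limma called 0 of the 6 members and 0% of all genes (1128 genes, 7.57%, at an unadjusted p under 0.05, 0 called by edgeR and 1 by DESeq2). There Cma1 had 0.46 ± 0.36 and Kit -0.31 ± 0.17, with adjusted p of 0.79 and 0.68. No member had an unadjusted p under 0.05 in either comparison, and edgeR and DESeq2 called 0 members in both.

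Placed in order over the 4 groups, no member had neighbouring group means set apart by their spread. Cma1, Mcpt4 and Cpa3 had their highest mean in 14-day and their second highest in 7-day Ang II arteries, Tpsb2 and Tpsab1 theirs in 7-day Ang II arteries, and Kit, Ms4a2 and Hdc theirs in 7-day sham arteries. For all 24 pairs of neighbouring group means, 3 for each of the 8 genes, the ranges of mean ± SD overlapped. Neighbours in a sorted order are the closest means, so this overlap does not cover groups farther apart. For Tpsab1 the range in 7-day Ang II arteries (0.302 ± 0.104) lay above those in 7-day sham (0.0858 ± 0.108) and 14-day Ang II arteries (0.0623 ± 0.0407). These 3 groups held 24, 6 and 7 Tpsab1 reads.

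The genes below the testing limit, Tpsab1 and Ms4a2, were set against sham with an exact permutation test (two-sided) of the difference in mean value. That test, and the fits of Tpsab1 without a filter, were chosen after the data were seen. Tpsab1 ran from 0.107 over a median of 0.329 to 0.393 in 7-day Ang II arteries and from 0 over 0.0530 to 0.268 in 7-day sham arteries. At 14 days the values were 0, 0.0461, 0.0751, 0.0859 and 0.104 in Ang II arteries, and ran from 0 over 0.240 to 0.50 in sham arteries. Ang II animals were thus the higher ones at 7 days, where 5 of 6 exceeded every sham animal, and the lower ones at 14 days, where none exceeded the sham median. The exact permutation p was 0.0087 at 7 days and 0.091 at 14 days, and the test was run 4 times in all, for these 2 genes at the 2 times.

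These Tpsab1 values rest on very few reads, with 24 in Ang II and 6 in sham over the 7-day libraries, and 7 in Ang II and 18 in sham over the 14-day libraries. The 3 sham libraries at 0 at 7 days were shallow, and 3 reads in them would have been worth 0.558 to 0.977, more than any Ang II value. A difference between the groups was therefore not detectable at this depth for those libraries. In fits without a filter on low values, over 26392 genes, the 7-day difference had an adjusted p of 0.31 by limma and 0.72 by edgeR. The same fits gave 0.25 and 0.18 at 14 days, and 0.62 and 0.52 for the difference of the responses. Neither fit called Tpsab1 over all genes.

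Ms4a2, the beta chain of the IgE receptor, had 3 reads in Ang II and 4 in sham libraries at 7 days, and 7 in Ang II and 2 in sham at 14 days. Its mean was 0.0345 ± 0.0540 in Ang II and 0.0822 ± 0.101 in sham at 7 days (SD, n = 6 each; exact permutation p = 0.35). At 14 days it was 0.0637 ± 0.0259 in Ang II (n = 5) and 0.0229 ± 0.0367 in sham (n = 6; exact permutation p = 0.061). All 5 Ang II libraries at 14 days held 1 or 2 reads, and 4 of 6 sham libraries held none. The alpha chain Fcer1a, which binds IgE, had 129 reads in 21 libraries and was under the testing limit as well.

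The 4 measured protease genes varied together from animal to animal. After each value was centred on its group mean on the log2(value + 0.5) scale, the 6 pairs of Cma1, Mcpt4, Tpsb2 and Cpa3 had Pearson r between 0.43 and 0.84 over the 23 libraries, with a median of 0.74. The closest pair was Cma1 with Cpa3 (r = 0.84, Spearman rho = 0.92), and r was 0.91 without the 2 libraries farthest from the median. The least close was Mcpt4 with Tpsb2 (r = 0.43, rho = 0.39), and Cma1 with Mcpt4 had 0.49, or 0.83 without the 2 farthest libraries. Kit had r between -0.01 and 0.29 with the 4 proteases and Hdc between -0.02 and 0.40, and the pair of Kit and Hdc had 0.08. Without the 2 farthest libraries of each pair, Kit had up to 0.37 with a protease, and Hdc had 0.11 to 0.50, so that its highest values (0.50 with Cma1, 0.45 with Mcpt4) lay above the 0.43 of Mcpt4 with Tpsb2. These correlations describe 23 libraries that share their depth and scaling, and they carry no test.

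**Figure D4:**
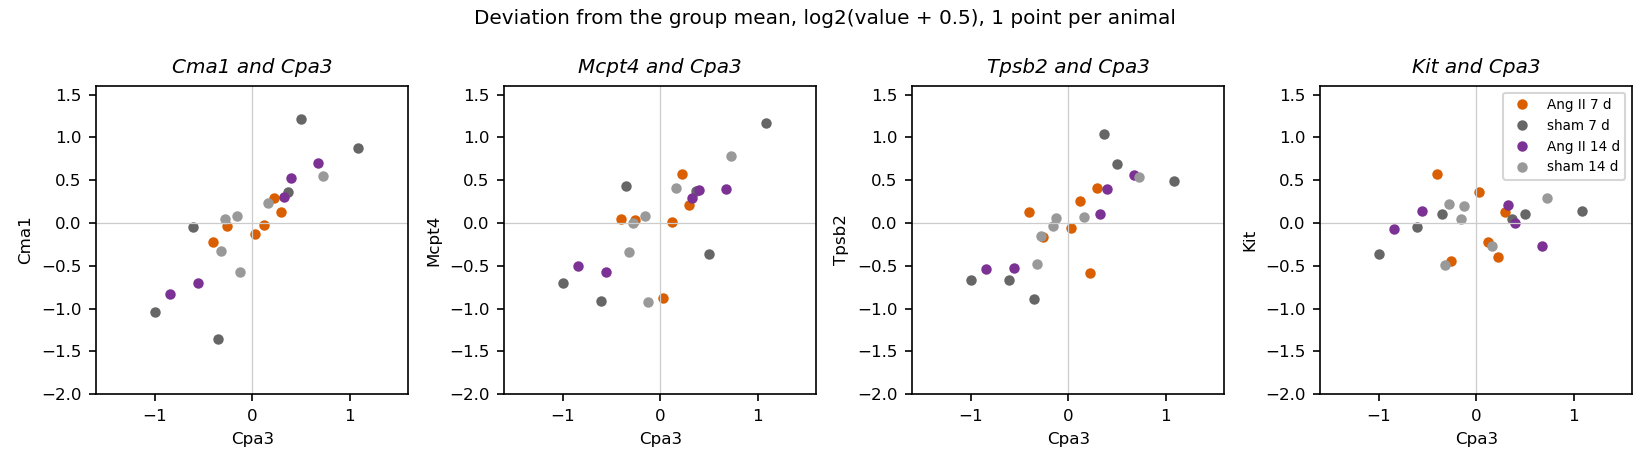
Deviation of each animal from its group mean on the log2(value + 0.5) scale, for Cma1, Mcpt4, Tpsb2 and Kit (vertical axes) against Cpa3 (horizontal axis), 1 point per animal coloured by group. Cma1, Mcpt4 and Tpsb2 climb with Cpa3 (r = 0.84, 0.71 and 0.78), whereas Kit lies flat (r = 0.15).

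Depth and markers of nearby tissue were set beside the proteases in the same way. The mean of the 4 proteases had r = -0.04 with library reads and 0.15 with the share of AY036118. Both sides were centred on group means, so these r cannot speak to differences in depth between the groups. With summed marker lists it had r = 0.43 for macrophages, 0.34 for adipocytes, 0.18 for pancreatic acinar cells, -0.10 for mesothelium, -0.37 for interstitial cells of Cajal and -0.42 for endothelium. Smooth muscle had -0.30 and lymphocytes 0.17. Without the 2 farthest libraries r was 0.60 for macrophages, 0.38 for adipocytes, 0.19 for acinar cells and -0.17 for mesothelium. It was then -0.53 for interstitial cells of Cajal, -0.25 for endothelium, -0.01 for smooth muscle and 0.31 for lymphocytes. These are descriptions over the same 23 libraries, and the part of such cells in the protease values was not tested.

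The genes whose pattern lay nearest to the mean of the 6 tested members were looked up among all 14896 tested genes. Cpa3 (r = 0.93), Cma1 (0.84), Tpsb2 (0.80) and Mcpt4 (0.78) took ranks 1 to 4, as parts of that mean, while Hdc (0.42) took rank 841 and Kit (0.27) rank 2835. The 8 nearest genes outside the list were Dock11 (r = 0.77), the potassium channel gene Kcnk13 (0.72), the ubiquitin-conjugating enzyme gene Ube2n (0.70), the sterol synthesis gene Cyp51 (0.70), Ensa (0.70), Mrgprb1 (0.69), the tetraspanin gene Tspan3 (0.69) and Deb1 (0.69). Of these, Mrgprb1 is a receptor gene of mouse mast cells and was the least abundant, with 241 reads and a mean of 0.724. Against the mean of the 4 proteases alone the nearest were Ensa (0.76), Kcnk13 (0.76), Dock11 (0.76) and Blvra (0.75). There Mrgprb1 took rank 74 (r = 0.61). That profile was chosen after the data were seen.

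The regions just before the starts of these genes are shown for Cpa3, Cma1 and Mcpt4, proteases that varied together between animals. Each line holds the 250 bases before the RefSeq start on GRCm38.p6, read in the direction of the gene, with GATAA or its reverse complement TTATC in capitals. GATA2 is known to drive mast cell genes, which is why that motif was sought.
Cpa3, minus strand, chr3:20242182-20242431: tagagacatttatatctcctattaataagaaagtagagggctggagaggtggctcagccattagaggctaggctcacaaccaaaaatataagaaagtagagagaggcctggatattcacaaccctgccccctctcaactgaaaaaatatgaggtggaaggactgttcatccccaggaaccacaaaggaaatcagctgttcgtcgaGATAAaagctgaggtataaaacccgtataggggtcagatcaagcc
Cma1, minus strand, chr14:55944676-55944925: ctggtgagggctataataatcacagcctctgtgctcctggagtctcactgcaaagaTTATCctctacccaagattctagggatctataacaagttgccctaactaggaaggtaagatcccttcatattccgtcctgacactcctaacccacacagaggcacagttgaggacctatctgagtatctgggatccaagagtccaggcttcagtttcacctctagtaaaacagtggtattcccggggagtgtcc
Mcpt4, minus strand, chr14:56062311-56062560: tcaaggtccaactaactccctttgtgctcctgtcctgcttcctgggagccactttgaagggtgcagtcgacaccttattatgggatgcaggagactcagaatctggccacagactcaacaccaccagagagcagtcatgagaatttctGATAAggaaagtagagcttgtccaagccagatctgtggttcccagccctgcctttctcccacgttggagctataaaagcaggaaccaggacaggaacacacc
The match began at base -45 in Cpa3, -194 in Cma1 and -102 in Mcpt4, counted from the start. RefSeq promoters were found for 6 of the 8 genes, and 4 of these 6 held the motif within the 250 bases before the start. Ms4a2 held it at -224, -37 and -10, and Kit and Hdc did not hold it. Over the same 250 bases, 22.6% of all 32851 RefSeq promoter windows held GATAA or TTATC. Cpa3 and Mcpt4 also held TATAAA or its reverse complement, at -31 and -32 (and at -242 in Cpa3), as did 12.4% of all windows. Other motifs were sought as well. CATGTG, of the type bound by MITF, had 0 matches in each of the 6 genes, where 12.3% of all windows held it or its reverse complement. The looser CANNTG was found in Cpa3, Cma1 and Hdc, and in 66.2% of all windows. A match describes the sequence only.

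Other genes of the mast cell pathway were followed as lists. Of the 13 granule genes outside the members, 5 could be tested and limma called 0 at either time, where it called 4.04% of all tested genes as higher and 2.01% as lower at 14 days. At an unadjusted p under 0.05 there were 0 at 7 days and 3 at 14 days, and edgeR and DESeq2 each called 0 at 7 days and 1, Rab27b as lower, at 14 days. In the mean of both times limma called 0 (2 at an unadjusted p under 0.05), and edgeR and DESeq2 each called 1, Cd63 as higher. Serglycin, the proteoglycan core that holds granule proteases (Srgn), averaged 54.0 ± 15 in Ang II (n = 5) and 60.6 ± 9.48 in sham (n = 6) at 14 days. Cd63, a granule membrane protein, averaged 44.9 ± 5.42 in Ang II and 37.9 ± 2.40 in sham (limma adjusted p = 0.082), and Rab27b, which guides granules to the membrane, 23.9 ± 2.57 in Ang II and 37.1 ± 9.06 in sham (adjusted p = 0.059). The other granule proteases were near 0, with 50 reads for Gzmb, 25 for Tpsg1, 10 for Prss34, 8 for Ctsg and 2 for Mcpt8 over all libraries.

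Receptors and signalling genes used by mast cells gave calls at 14 days. Of 13 tested, limma called 0 at 7 days (2 at an unadjusted p under 0.05, where 9.28% of all genes were, and 0 called by edgeR and DESeq2). At 14 days it called 2 as higher, where 4.04% of all genes were, with a median log2 fold change of 0.42 against 0.03 over all genes. Syk, the kinase that couples the IgE receptor to its targets, averaged 27.7 ± 5.16 in Ang II (n = 5) and 19.3 ± 3.49 in sham (n = 6), or 0.51 ± 0.15 as log2 fold change (SE; limma adjusted p = 0.043). Csf2rb, the shared beta chain of receptors for growth factors of myeloid cells, averaged 13.6 ± 2.43 in Ang II and 8.86 ± 2.10 in sham (0.61 ± 0.16; adjusted p = 0.027). In the mean of both times, where 5.43% of all genes were higher, limma called 3 of the 13. Of these Enpp3, an ectoenzyme used as a marker of basophils and mast cells, also rose, by 0.36 (limma adjusted p = 0.0056). Fcer1g, the gamma chain of the IgE receptor, had 0.56 (adjusted p = 0.093) at 14 days and the IL-33 receptor gene Il1rl1 0.43 (adjusted p = 0.084). Mrgprb1 had -0.32 at 7 days and 0.29 at 14 days, with adjusted p of 0.86 and 0.61.

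Genes for lipid mediators, which mast cells share with macrophages and other leukocytes, gave few calls. Of the 7 tested, limma called 0 at 7 days (4 at an unadjusted p under 0.05, where 9.28% of all genes were, and 0 called by edgeR and DESeq2). At 14 days it called 1 as higher, where 4.04% of all genes were, with medians of 0.43 and 0.31 on the log2 scale. Alox5ap, the partner of 5-lipoxygenase, averaged 11.2 ± 3.29 in Ang II (n = 5) and 7.11 ± 1.90 in sham (n = 6) at 14 days (0.62 ± 0.19, SE; limma adjusted p = 0.049). In the mean of both times, where 5.43% of all genes were higher, Alox5ap and Alox5 rose by 0.52 and 0.44. Ptgs2 and Pla2g4a, which act in prostaglandin synthesis, were higher in 14-day than in 7-day Ang II arteries, by 1.57 and 0.54, where 1.46% of all genes were. With the series of animal numbers in the fit these differences had limma adjusted p of 0.71 and 0.73. The 14-day and 7-day Ang II groups shared no series, so that fit could link them only through sham animals. Among the Ang II animals alone, series and time cannot be told apart. Sham arteries also had higher means at 14 than at 7 days. Ptgs2 averaged 10.0 ± 4.38 and 4.67 ± 1.24 there, and Pla2g4a 26.7 ± 3.99 and 20.6 ± 2.33 (SD, n = 6 each). Limma called 0 of the 7 and 0% of all genes between the sham times, and likewise for the difference of the responses. Hpgds, the prostaglandin D synthase of blood-derived cells, averaged 8.50 ± 3.17 in Ang II and 6.49 ± 0.994 in sham at 14 days and was not called.

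Targets and partners of the proteases gave 2 limma calls at 14 days. Of the 10 tested, limma called 0 at 7 days (3 at an unadjusted p under 0.05, where 9.28% of all genes were, 0 called by edgeR and 2 by DESeq2). At 14 days it called 2 as higher, where 4.04% of all genes were, and 0 as lower. Mmp2, a gelatinase whose proform mast cell chymase can cleave, averaged 221 ± 67.3 in Ang II (n = 5) and 124 ± 17.9 in sham (n = 6) at 14 days (log2 0.79 ± 0.16, SE; limma adjusted p = 0.0057). Tgfb1 averaged 12.6 ± 6.64 in Ang II and 6.40 ± 0.629 in sham (0.80 ± 0.22; adjusted p = 0.035). In the mean of both times, where 5.43% of all genes were higher, limma called 3 as higher, among them Serpina3n, a protease inhibitor gene, by 0.65. Mmp9, another gelatinase, averaged 3.45 ± 1.15 in Ang II and 6.59 ± 3.29 in sham at 14 days (log2 -0.76; limma adjusted p = 0.12), which DESeq2 called as lower and edgeR did not. Between 14-day and 7-day Ang II arteries Mmp9 had -1.07 (limma adjusted p = 0.060), and there both edgeR and DESeq2 called it as lower. Ace, which also forms Ang II, averaged 178 ± 62.7 in Ang II and 131 ± 19.9 in sham at 14 days, and the tryptase target F2rl1 10.5 ± 0.978 in Ang II and 12.96 ± 1.83 in sham, neither of them called.

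Mast cell transcription factor genes and histamine-handling genes gave no calls. Of the transcription factors 5 of 6 were tested and of the histamine list 3 of 6, with 0 called by limma, edgeR or DESeq2 at either time or in the mean of both. At an unadjusted p under 0.05 limma had 2 transcription factors at each time, and 1 histamine gene at 7 days and 0 at 14 days. Mitf averaged 19.1 ± 2.78 in Ang II (n = 5) and 14.7 ± 1.22 in sham (n = 6) at 14 days (limma adjusted p = 0.11), Stat5b 41.7 ± 6.74 in Ang II and 35.5 ± 0.788 in sham (0.13), and Stat5a 17 ± 1.22 in Ang II and 15.2 ± 2.18 in sham (0.45). Hnmt, which methylates histamine, averaged 8.24 ± 2.10 in Ang II and 9.82 ± 1.43 in sham at 14 days. The histamine receptor gene Hrh1 averaged 2.09 ± 0.700 in Ang II and 1.21 ± 0.630 in sham at 7 days (n = 6 each; log2 0.65, limma adjusted p = 0.30), and Hrh2 0.707 ± 0.427 in Ang II and 0.420 ± 0.358 in sham.

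The calls among these pathway genes stood beside changes in markers of other cells. Of 10 macrophage markers limma called 1 as higher at 14 days (Csf1r, log2 0.62, adjusted p = 0.028), where 4.04% of all genes were. In the mean of both times limma called 4 of them as higher, where 5.43% of all genes were. The summed list lay between 554 and 928 in Ang II and between 484 and 665 in sham at 14 days. Syk, Csf2rb, Alox5 and Alox5ap are used by macrophages too, and the part of macrophages in their values was not tested. Of 12 pancreatic acinar markers limma called 10 as lower at 14 days, where 2.01% of all genes were. Their sums were 49740 to 92731 in Ang II and 77998 to 164520 in sham. The animal numbers in the titles fall into series. Of the 14-day pathway calls, Syk, Csf2rb, Alox5ap, Mmp2 and Tgfb1 were all lost once the series of animal numbers entered the fit. Their limma adjusted p were then 0.22, 0.22, 0.24, 0.084 and 0.22, although the log2 fold changes stayed between 0.51 and 0.82. Series 30 held only the 14-day Ang II replicates 4 and 5. The 14-day differences in that fit therefore came from series 26, with 3 Ang II and 4 sham animals. With each of the 23 libraries left out in turn, the 14-day call was kept 23 times for Mmp2, 19 for Csf2rb, 16 for Tgfb1, 12 for Syk and 8 for Alox5ap, and the adjusted p went up to 0.022, 0.077, 0.12, 0.095 and 0.11. In the mean of both times the call was kept 23 times for Syk, Enpp3, Alox5ap and Mmp2. It was kept 13 times for Csf2rb, 12 for Alox5, 10 for Serpina3n and 7 for Tgfb1. With the series in the fit, the call in that mean stayed for Syk (limma adjusted p = 0.042) and Mmp2 (0.0054). It was lost for Enpp3 (0.056), Alox5ap (0.058), Csf2rb (0.14), Alox5 (0.16), Tgfb1 (0.17) and Serpina3n (0.21).

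Other cells known to use Kit or Hdc were measured as well. Markers of interstitial cells of Cajal, the pacemaker cells of the gut wall, were all 4 detected and tested, with 0 called at either time by limma, edgeR or DESeq2 (0 at an unadjusted p under 0.05 at 7 days and 1 at 14 days by limma). Their sum lay between 53.1 and 69.3 in Ang II and between 53.2 and 71.2 in sham at 7 days, and between 50.7 and 70.9 in Ang II and between 50.6 and 72.2 in sham at 14 days. Kit had r = 0.01 with that sum over the 23 libraries. The sum, 61.7 on average, was mostly Ano1 (40.7), so this r is chiefly that with 1 gene. Melanocyte markers were under the testing limit in all 5 cases, at 19 to 128 reads over all libraries. Of the 4 markers of histamine-storing gastric cells 3 were tested and 0 called by limma, edgeR or DESeq2, with 0 at an unadjusted p under 0.05 by limma and summed levels of 44.9 to 134 in Ang II and 77.5 to 328 in sham at 7 days. The gastric sum, 109 on average, was mostly Chga (85.8). Within it Slc18a2 ran from 0.417 to 230 over the libraries, and Cckbr had 14 reads. Hdc had r = 0.00 with the gastric sum and 0.54 with the summed basophil list, of which the defining genes Mcpt8 and Prss34 had 2 and 10 reads. That sum, 8.80 on average, is mostly the integrin gene Itga2 (8.14, 2685 reads), which other cells use too and which is the only 1 of the 6 basophil genes that was tested. The part of these cells in the Kit and Hdc values was not tested.

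The members were also compared within the series of animal numbers. At 7 days series 27 (3 Ang II, 4 sham) and series 28 (3 Ang II, 2 sham) held both groups. Cma1 differed by 0.78 and 0.76 on the log2(value + 0.5) scale in the 2 series, Mcpt4 by 0.74 and 0.12, Kit by -0.15 and -0.50, and Hdc by 0.22 and -0.49. At 14 days only series 26 (3 Ang II, 4 sham) held both groups, where Mcpt4 differed by 0.59, Cpa3 by 0.44, Cma1 by 0.35, Tpsb2 by 0.17, Kit by -0.05 and Hdc by -0.11. The direction for Cma1, Mcpt4, Tpsb2 and Cpa3 was the same in all 3 series, while that of Hdc differed between the 7-day series and that of Kit at 14 days differed from the pooled value.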

How the data were processed

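Total RNA from mesenteric arteries was sequenced in 23 libraries of 4 groups. The authors deposited 1 table of normalised expression signal per gene and library. The submitters' processing notes name STAR 2.3.1, HTSeq 0.5.3p3 and edgeR 3.6.8, as well as bcl2fastq 1.8.4, FastQC and R 3.2.3, and build mm10. Annotation, strand setting and scaling: not given in the sources used here. All 460324 deposited signal values above 0 were whole multiples of 1 read within 0.001 read (100%), so read counts were recovered, 4471038 to 21509283 per library. Tests used limma 3.58.1 (R 4.3.3; trended, robust) on log2(value + 0.5), with all libraries in 1 fit of 4 group means. A gene was tested when 5 libraries had a value of at least 1, which left 14896 genes and 6 of the 8 members. Such fold changes understate changes of low genes. The p-values were Benjamini-Hochberg adjusted over all tested genes and called under 0.05; edgeR 4.0.16 and DESeq2 1.42.0 on recovered reads were alternatives. Exact permutation tests used scipy 1.17.1. The fits were tested on simulated data. Animals are separate, but shared litters or days are not labelled, so p-values measure the spread between these samples. Zero limits count 3 reads and cover counting error only. Coordinates, exon lengths and coding sequences come from GENCODE M21 on GRCm38 (37693 of 39179 identifiers found), and promoters from RefSeq on GRCm38.p6. Named genes were all 8 members; called genes of each pathway list, or its 3 most abundant; and the 8 genes most correlated with the members. Other named genes (Fcer1g, Il1rl1, Mrgprb1, Ace, F2rl1, Mmp9, Itga2, Hpgds, Fcer1a, the low granule proteases and the marker genes) were chosen after their values were seen. The members and lists were chosen with earlier results of these data known.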

Additional observations from a re-analysis of the deposited data

Results flagged for a closer look

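Among 32 sets of values, the 8 genes in each of the 4 groups, 1 set held an animal far from the rest of its group. Cpa3 in 14-day sham replicate 1 was 5.0, where the next highest sham value was 3.22 and the lowest 2.16. Its gap took up 0.627 of the group's range, just over the limit of 0.625 for 6 samples, and it rested on 60 reads. Chance flags about 1 set in 20. The same animal also had the highest sham value at 14 days for Cma1, Mcpt4, Tpsb2 and Kit.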

How the results depend on the processing

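No member was called in any of the 6 comparisons under any of 12 alternatives or with any of the 23 libraries left out, among those that could be tested. With a filter at a value of 5 only Kit was tested. Of 1218 member fold changes under these alternatives 1151 kept their sign and 67, in 14 of 36 results, did not. Without AY036118 in the library totals, which moved the median of all genes to 0.23 at 14 days, the log2 fold change was 0.018 for Hdc at 7 days and 0.069 for Kit in the mean of both times. Tpsb2 then had 0.041 for the difference of the responses, 0.045 between the Ang II times and 0.0045 between the sham times, and Cma1 0.038 between the Ang II times. With the animal series as a covariate Kit had -0.046 at 14 days and -0.43 between the Ang II times. Cma1 then had 0.0095 between the Ang II times and Cpa3 -0.0068 between the sham times. In that fit the 14-day value comes from series 26, with 3 Ang II and 4 sham animals. The Ang II groups of the different times share no series and are linked only through sham animals. By edgeR and DESeq2 Tpsb2 had 0.14 and 0.13 for the difference of the responses, Cma1 0.037 and 0.028 between the Ang II times, Cpa3 -0.048 and -0.045 and Mcpt4 -0.068 and -0.068 between the sham times. Tpsb2 between the sham times was 0.038 with a pseudocount of 0.1, 0.0076 with TMM and 0.020 with upper-quartile scaling. The cause was not tested.

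With 1 library left out, at 7 days Cma1 ran from 0.48 to 0.99, Mcpt4 from 0.26 to 0.67, Cpa3 from 0.021 to 0.44, Tpsb2 from 0.0063 to 0.39, Kit from -0.41 to -0.21 and Hdc from -0.19 to 0.18. At 14 days Mcpt4 ran from 0.32 to 0.66, Cpa3 from 0.14 to 0.52, Cma1 from 0.026 to 0.41, Tpsb2 from -0.018 to 0.26, Kit from 0.090 to 0.26 and Hdc from -0.45 to -0.16. For the difference of the responses Cpa3 ran from -0.13 to 0.30, Mcpt4 from -0.17 to 0.25 and Tpsb2 from -0.27 to 0.12. Between the Ang II times Cma1 ran from -0.26 to 0.12, Mcpt4 from -0.091 to 0.23 and Tpsb2 from -0.21 to 0.064. Between the sham times Cpa3 ran from -0.11 to 0.31, Mcpt4 from -0.16 to 0.25 and Tpsb2 from -0.19 to 0.20. The exact permutation p of Tpsab1 ran from 0.0043 to 0.017 at 7 days and from 0.0079 (without sham replicate 6) to 0.19 at 14 days. That of Ms4a2 at 14 days ran from 0.032 (without sham replicate 1) to 0.13, with 0.040 without sham replicate 3.

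Over all genes limma gave 112 higher and 10 lower calls at 7 days and 602 and 300 at 14 days. With the series covariate these became 78 and 6, and 14 and 2. The 14-day differences with that covariate come from series 26, with 3 Ang II and 4 sham libraries. At 14 days the calls were 490 and 361 with TMM and 424 and 368 with upper-quartile scaling. They were 3698 and 163 without AY036118 and 1032 and 766 by DESeq2. With 1 library left out the total ran from 68 to 157 at 7 days, 399 to 2193 at 14 days, 790 to 1776 in the mean of both times and 62 to 767 between the Ang II times. At 7 days it moved by over 1.5 times without Ang II replicate 1 (64 higher, 4 lower) or 6 (62, 6). At 14 days it did so without Ang II replicate 2 (1410, 783), 3 (341, 76), 4 (283, 116) or 5 (320, 124), or sham replicate 2 (393, 151), 3 (359, 143) or 4 (373, 149). No paired analysis was possible because the labels give no replicate numbers shared between groups. The fit on the groups of a comparison alone could not be made for the difference of the responses or the mean of both times. Depth limits Tpsab1 and Ms4a2, and the 7-day sham group, most.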
